A study of Arabidopsis thaliana with 6 samples.

Results

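The fermentation and sucrose synthase enzymes of Arabidopsis thaliana were followed through 10 genes, of 32833 in the count files. They were listed by gene identifier, with no threshold on their values: the alcohol dehydrogenase ADH1, the pyruvate decarboxylases PDC1, PDC2, PDC3 and PDC4, the lactate dehydrogenase LDH, the alanine aminotransferases AlaAT1 and AlaAT2, and the sucrose synthases SUS1 and SUS4. The list was made with earlier results of these data known. The study compared whole seedlings of amiRNA-VQ1,10, a line carrying an artificial microRNA, named for the genes VQ1 and VQ10, with whole seedlings of wild type Col-0, in 3 libraries each, described as independent biological replicates. Such a microRNA is engineered to pair with chosen transcripts and lower their level, and VQ proteins are known as partners of WRKY transcription factors. Both genotypes had 14 days of growth in normoxia (21% O2) on medium with 1% sucrose, in days of 16 h of light, and were collected 4 h after lights on. No group was low in oxygen. The sources used here do not give the promoter of the microRNA or the number of independent lines.

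When oxygen is short, a plant cell cannot run respiration at full rate and keeps making ATP by glycolysis. Sucrose synthases split sucrose into fructose and UDP-glucose and so feed glycolysis with a lower cost in ATP than invertases. Pyruvate decarboxylase turns pyruvate into acetaldehyde and alcohol dehydrogenase turns that into ethanol, which restores NAD+ for glycolysis. Lactate dehydrogenase does so by making lactate, and alanine aminotransferase makes alanine from pyruvate. ADH1, PDC1, SUS1 and SUS4 are classic genes induced by hypoxia in Arabidopsis, and the values here are their levels in well-aerated seedlings.

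The libraries held 1104916, 926209 and 1177363 gene counts in amiRNA-VQ1,10 and 1175811, 1329817 and 1124134 in wild type, so 1 count was worth 0.752 to 1.08 CPM (gene counts scaled to a library total of 1000000). The reads came from the 3′ ends of transcripts, so CPM was compared between genes without dividing by length. How well each transcript end is captured is not known. VQ1 had 0, 0 and 0 counts in amiRNA-VQ1,10 and 5, 1 and 2 in wild type, and VQ10 had 0, 0 and 0 against 1, 0 and 0. At this depth VQ10 was too low for any difference to be seen. Markers of leaf and root were present in all libraries, while 4 of 5 seed storage markers had 0 counts throughout and the fifth, CRA1, had 5 counts in wild type replicate 1 alone. In whole seedlings, fewer cells of a type and less RNA per cell cannot be told apart.

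All 10 genes had counts, and none of them passed the test between the genotypes. Of the 10, 7 had enough counts to be tested (edgeR quasi-likelihood test with Benjamini-Hochberg adjustment over 12701 genes, threshold 0.05), and 0 passed, with 0 at an unadjusted p under 0.05, against 6.02% of all tested genes. The lowest unadjusted edgeR p of the 7 were 0.0595 for LDH, 0.0681 for PDC1 and 0.0724 for ADH1. DESeq2 and limma-voom called 0 of the 7 as well. Over all tested genes 13 passed, or 0.102%. The 7 log2 fold changes (amiRNA-VQ1,10 over wild type) ran from -0.45 to 0.43 with a median of -0.23, and 5 of the 7 were below 0. Over all tested genes the median was 0.00 and 49.3% were below 0. PDC3, PDC4 and AlaAT2 averaged 1.5, 1.67 and 2.67 counts per library, too few to be tested. The ranges of the genotypes did not overlap for 2 of the 7 tested genes, ADH1 and LDH, and for 2 of the 3 others, PDC3 and PDC4. The share of genes with separate ranges was 10.6% among all tested genes and 9.21% among genes with 5 to 20 counts over the 6 libraries, a window chosen after the values were seen.

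**Figure D1:**
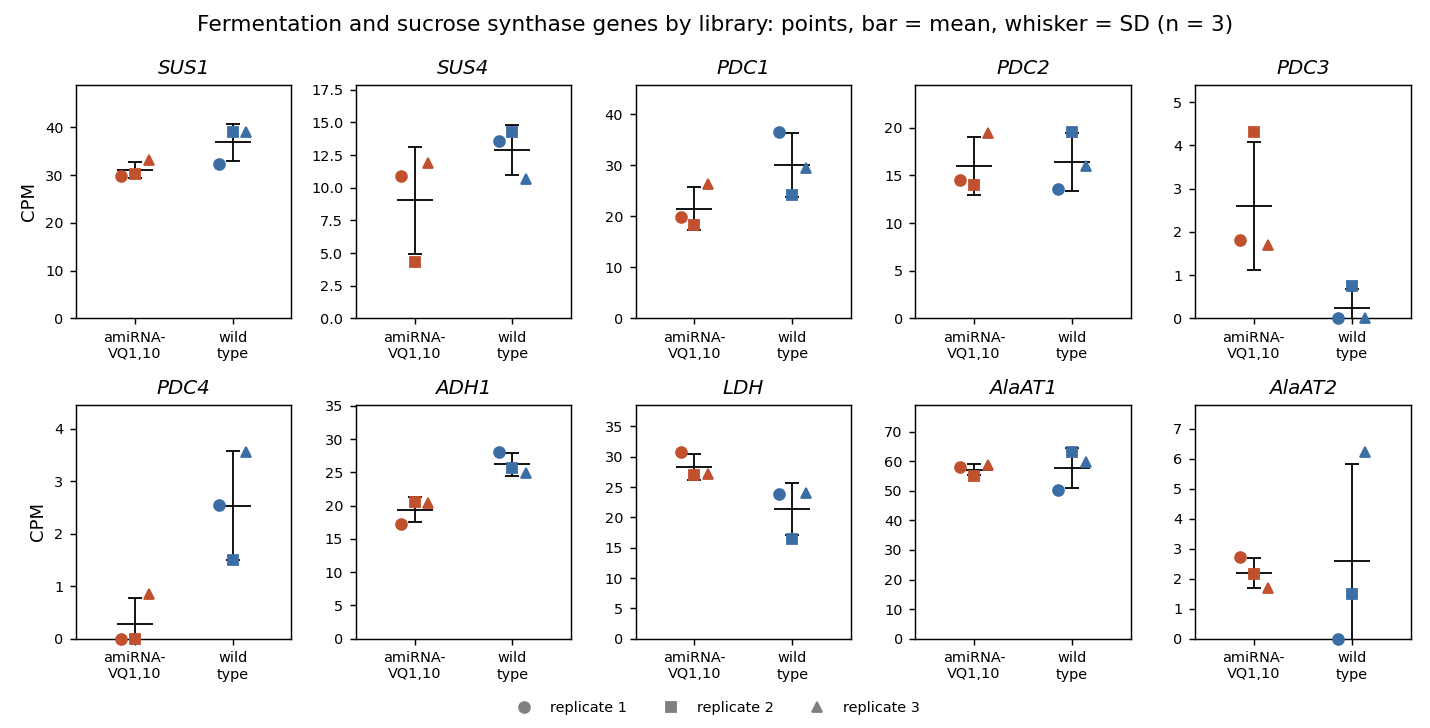
CPM of the 10 genes in each library (points, with a shape per replicate), with the mean and SD of each genotype (n = 3) and a separate linear axis per gene. In each pair amiRNA-VQ1,10 is on the left, and the points of the genotypes are separate for PDC3, PDC4, ADH1 and LDH. The whiskers of AlaAT2 and PDC3 in wild type and of PDC4 in amiRNA-VQ1,10 are cut at 0.

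AlaAT1 had the highest level of the 10 genes in both genotypes, and the order below it differed in the places of LDH, PDC1 and ADH1 and of the 3 genes with the fewest counts. In amiRNA-VQ1,10 the mean CPM ran AlaAT1 (57.2), SUS1 (31.1), LDH (28.3), PDC1 (21.5), ADH1 (19.4), PDC2 (16.0) and SUS4 (9.02), with PDC3, AlaAT2 and PDC4 at 2.61, 2.19 and 0.283. In wild type it ran AlaAT1 (57.6), SUS1 (36.9), PDC1 (30.0), ADH1 (26.2), LDH (21.5), PDC2 (16.4) and SUS4 (12.9), with AlaAT2, PDC4 and PDC3 at 2.58, 2.54 and 0.251. Many neighbours in these orders were not set apart by their libraries. In amiRNA-VQ1,10 the ranges overlapped between SUS1 and LDH, between PDC1 and ADH1, between ADH1 and PDC2, between SUS4 and PDC3, and between PDC3 and AlaAT2. In wild type they overlapped between SUS1 and PDC1, between PDC1 and ADH1, between LDH and PDC2, between PDC2 and SUS4, and between AlaAT2 and PDC4.

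Sucrose synthases stand at the entry of the pathway. SUS1 (AT5G20830, chromosome 5) had 29.9, 30.2 and 33.1 CPM in amiRNA-VQ1,10 and 32.3, 39.1 and 39.1 CPM in wild type. The highest amiRNA-VQ1,10 library lay above the lowest wild type library, so the ranges overlapped. The log2 fold change was -0.23 ± 0.18 (SE, n = 3 per genotype), with a 95% interval of -0.60 to 0.15 and an edgeR adjusted p of 0.933. SUS4 (AT3G43190, chromosome 3), the closest relative of SUS1, had 10.9, 4.32 and 11.9 CPM in amiRNA-VQ1,10 and 13.6, 14.3 and 10.7 CPM in wild type. Replicate 2 of amiRNA-VQ1,10 was the low one, with 4 counts, and the ranges overlapped. The log2 fold change was -0.45 ± 0.34 (SE), with a 95% interval of -1.16 to 0.26 and an edgeR adjusted p of 0.92, and it stood at -0.16 without amiRNA-VQ1,10 replicate 2.

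SUS1 and SUS4 are close in coding sequence. Over the coding sequence they were 84.3% identical, and over the last 300 coding bases 86.3%, with a longest shared run of 29 bases. The end of the coding sequence in the last coding exon, on the minus strand in both genes, is shown as an example of how they differ. The transcripts run on beyond it, and over their last 300 bases the longest shared run was 14 bases. Identity over those transcript ends was not measured. SUS1 is at chr5:7050599-7050631 and SUS4 at chr3:15179204-15179236 (TAIR10.1), and capitals mark the 5 of 33 bases at which they differ:
SUS1: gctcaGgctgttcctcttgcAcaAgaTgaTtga
SUS4: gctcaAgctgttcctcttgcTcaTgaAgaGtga
SUS4 took 26.7%, 12.5% and 26.4% of the counts of the pair in amiRNA-VQ1,10 and 29.6%, 26.8% and 21.4% in wild type. Over the pooled counts the share was 23.1% in amiRNA-VQ1,10 (30 of 130, exact 95% binomial interval 16.1% to 31.3%) and 26.0% in wild type (47 of 181, 19.7% to 33.0%), so the intervals overlapped widely. The intervals cover counting error only. Among all 6 sucrose synthase genes SUS3 was as abundant as SUS1 in wild type, with 80 counts in amiRNA-VQ1,10 and 135 in wild type, against 100 and 134 for SUS1. SUS2, SUS5 and SUS6 had 1, 4 and 5 counts in amiRNA-VQ1,10 and 2, 2 and 7 in wild type.

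Pyruvate decarboxylase commits pyruvate to ethanol. PDC1 (AT4G33070, chromosome 4), the isoform known for its induction by low oxygen, had 19.9, 18.4 and 26.3 CPM in amiRNA-VQ1,10 and 36.6, 24.1 and 29.4 CPM in wild type. Replicate 3 of amiRNA-VQ1,10 lay above replicate 2 of wild type, so the ranges overlapped. The log2 fold change was -0.43 ± 0.23 (SE), with a 95% interval of -0.90 to 0.03 and an edgeR adjusted p of 0.857. It was -0.27 without wild type replicate 1, the highest library, and -0.61 without amiRNA-VQ1,10 replicate 3. PDC2 (AT5G54960, chromosome 5), an isoform with a single coding exon, had 14.5, 14.0 and 19.5 CPM in amiRNA-VQ1,10 and 13.6, 19.6 and 16.0 CPM in wild type. The ranges of PDC2 overlapped almost completely, with a log2 fold change of -0.01 ± 0.27 (SE, 95% interval -0.56 to 0.54). PDC1 took 57.9%, 56.7% and 57.4% of the counts of PDC1 and PDC2 in amiRNA-VQ1,10 and 72.9%, 55.2% and 64.7% in wild type. The amiRNA-VQ1,10 libraries thus lay close together and within the wild type range.

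PDC3 (AT5G01330) and PDC4 (AT5G01320) are neighbours on chromosome 5, both on the minus strand, with 576 bases and no annotated gene between them. PDC3 had 2, 4 and 2 counts in amiRNA-VQ1,10 and 0, 1 and 0 in wild type. PDC4 had 0, 0 and 1 counts in amiRNA-VQ1,10 and 3, 2 and 4 in wild type. PDC3 therefore had more counts in every amiRNA-VQ1,10 library than in any wild type library, and PDC4 fewer, with both genes near the floor of detection.

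The sum of PDC3 and PDC4 was 2, 4 and 3 counts in amiRNA-VQ1,10 and 3, 3 and 4 counts in wild type, with ranges that overlapped. PDC3 held 8 of 9 counts of the pair in amiRNA-VQ1,10 (88.9%, exact 95% binomial interval 51.8% to 99.7%) and 1 of 10 in wild type (10.0%, 0.253% to 44.5%). These intervals pool the libraries of a genotype and cover counting error only, not spread between libraries. The share of PDC3 in the pair was examined after its values were seen. An exact permutation test on the share by library gave p = 0.1. That is the smallest p possible with 3 libraries per genotype, so the test cannot decide. Fitted with no filter on low counts, PDC3 had a log2 fold change of 2.77 ± 1.23 (SE, edgeR adjusted p = 0.783) and PDC4 one of -2.61 ± 1.22 (adjusted p = 0.853). The prior count bears on fitted values of such low genes. That fit called 92 of 22738 genes (0.405%), and neither gene was among them. Among the genes with 5 to 20 counts 9.21% had separate ranges, and each of these genes is 1 of them.

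**Figure D2:**
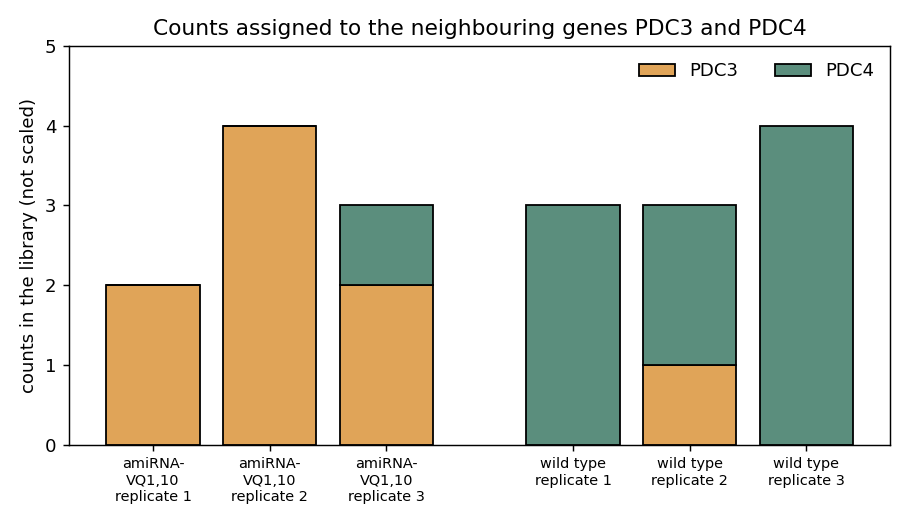
Unscaled counts assigned to PDC3 and PDC4 in each library, stacked, with the amiRNA-VQ1,10 libraries on the left. The bars sum to 2 to 4 counts in every library; PDC3 makes up 8 of 9 counts in amiRNA-VQ1,10 and 1 of 10 in wild type.

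The coding sequences of PDC3 and PDC4 were 93.0% identical, against 76.0% for PDC1 and PDC2 and 86.4% for PDC1 and PDC3. Over the last 300 coding bases PDC3 and PDC4 differed at 11 positions, with a longest shared run of 56 bases. Over the last 300 bases of the transcripts, which run on beyond the coding sequence and where a 3′ library has its reads, it was 42 bases. The last 120 coding bases are shown for how few positions set the ends of the coding sequences apart. They stop before the annotated transcripts do. Over the last 300 transcript bases only the longest shared run was measured, not the identity. PDC3 lies at chr5:132538-132657 and PDC4 at chr5:129484-129603 (TAIR10.1, minus strand), and capitals mark the 3 positions that differ:
PDC3: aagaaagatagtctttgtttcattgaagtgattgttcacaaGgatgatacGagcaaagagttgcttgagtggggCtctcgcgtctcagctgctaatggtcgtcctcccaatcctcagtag
PDC4: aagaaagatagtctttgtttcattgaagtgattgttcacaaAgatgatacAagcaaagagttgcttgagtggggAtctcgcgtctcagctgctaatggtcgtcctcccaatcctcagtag
A read that lies wholly within a shared run has more than 1 alignment. Such reads, 4.40% to 5.45% of the entries of a library, were set aside in the count files and not assigned to a gene. The read length is unknown here, and so is how reads that tell the copies apart at few positions were placed. The assignment of counts between PDC3 and PDC4 was not checked in the reads and stays uncertain.

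ADH1 (AT1G77120, chromosome 1), which reduces acetaldehyde to ethanol, had 17.2, 20.5 and 20.4 CPM in amiRNA-VQ1,10 and 28.1, 25.6 and 24.9 CPM in wild type. Every amiRNA-VQ1,10 library lay below every wild type library. The means were 19.4 ± 1.88 CPM in amiRNA-VQ1,10 and 26.2 ± 1.67 CPM in wild type (SD, n = 3 each). The log2 fold change of ADH1 was -0.42 ± 0.22 (SE), with a 95% interval of -0.87 to 0.03, and it did not pass (edgeR adjusted p = 0.857). With 19 to 34 counts per library, counting error alone amounted to about 4.27 CPM per amiRNA-VQ1,10 library and 4.66 CPM per wild type library, more than the spread seen between replicates. ADH1 lay between -0.46 and -0.34 with each library left out in turn. The annotated ADH1 overlaps AT1G77122, on the opposite strand, by 61 bases at its 3′ end, and whether the counting used strand is not stated. AT1G77122 had 21, 11 and 14 counts in amiRNA-VQ1,10 and 14, 30 and 15 in wild type, with ranges that overlapped.

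LDH (AT4G17260, chromosome 4) was the one tested gene of the 10 with the opposite order of libraries. It had 30.8, 27.0 and 27.2 CPM in amiRNA-VQ1,10 and 23.8, 16.5 and 24.0 CPM in wild type. Every amiRNA-VQ1,10 library lay above every wild type library, with means of 28.3 ± 2.13 CPM in amiRNA-VQ1,10 and 21.5 ± 4.26 CPM in wild type (SD, n = 3 each). The log2 fold change of LDH was 0.43 ± 0.22 (SE), with a 95% interval of -0.02 to 0.88, and it did not pass (edgeR adjusted p = 0.843). It was 0.27 without wild type replicate 2, the lowest library. LDH had more counts than ADH1 and more than PDC1 in each amiRNA-VQ1,10 library, and fewer than either in each wild type library. The ratio of LDH counts to ADH1 counts was 1.79, 1.32 and 1.33 in amiRNA-VQ1,10 and 0.848, 0.647 and 0.964 in wild type. The ratio of LDH counts to PDC1 counts was 1.55, 1.47 and 1.03 in amiRNA-VQ1,10 and 0.651, 0.688 and 0.818 in wild type. Both ratios had separate ranges, were formed after the values were seen and were not tested. The ratio of PDC1 counts to ADH1 counts was 1.16, 0.895 and 1.29 in amiRNA-VQ1,10 and 1.3, 0.941 and 1.18 in wild type, with ranges that overlapped.

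AlaAT1 (AT1G17290, chromosome 1), which exchanges the amino group between glutamate and pyruvate, had the most counts of the 10 genes. It had 57.9, 55.1 and 58.6 CPM in amiRNA-VQ1,10 and 50.2, 63.2 and 59.6 CPM in wild type. The amiRNA-VQ1,10 libraries lay inside the wild type range. The log2 fold change was 0.01 ± 0.15 (SE), with a 95% interval of -0.30 to 0.31, the narrowest of the 7 (edgeR adjusted p = 0.997). AlaAT2 (AT1G72330, chromosome 1), its close relative, had 3, 2 and 2 counts in amiRNA-VQ1,10 and 0, 2 and 7 in wild type. AlaAT2 held 3.66% of the counts of the pair in amiRNA-VQ1,10 (7 of 191, exact 95% binomial interval 1.49% to 7.41%) and 4.11% in wild type (9 of 219, 1.90% to 7.66%). Its 3′ end overlaps AT1G72340 on the same strand by 26 bases, so that reads there can match both annotations. AT1G72340 had 22.6, 23.8 and 23.8 CPM in amiRNA-VQ1,10 and 13.6, 19.6 and 21.3 CPM in wild type. Its ranges were separate, with higher levels in amiRNA-VQ1,10, and it did not pass (log2 fold change 0.38 ± 0.23, SE, edgeR adjusted p = 0.877).

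The edgeR intervals give how large a difference that fit leaves possible. On the linear scale the fold between amiRNA-VQ1,10 and wild type had a 95% interval of 0.548 to 1.02 for ADH1, 0.536 to 1.02 for PDC1, 0.679 to 1.45 for PDC2 and 0.987 to 1.85 for LDH. It was 0.813 to 1.24 for AlaAT1, 0.659 to 1.11 for SUS1 and 0.449 to 1.20 for SUS4. A difference of 2-fold in either direction lay outside these edgeR intervals for 6 of the 7 genes, and a 2-fold lower level lay inside that of SUS4. This depends on the edgeR SE. DESeq2 gave wider log2 SE, of 0.34 for ADH1, 0.33 for PDC1 and 0.33 for LDH, against 0.22, 0.23 and 0.22 by edgeR. A 2-fold difference in these 3 genes is therefore not excluded by every method.

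**Figure D3:**
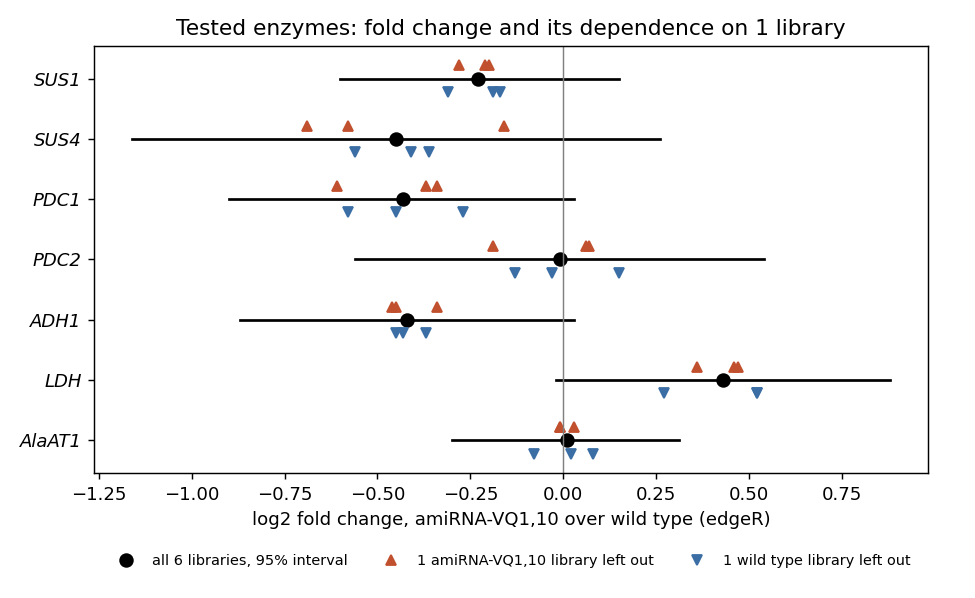
Log2 fold change (amiRNA-VQ1,10 over wild type, edgeR) of the 7 tested genes from all 6 libraries with its 95% interval (black), and from fits with 1 library left out (triangles pointing up for amiRNA-VQ1,10 libraries, down for wild type libraries). ADH1, PDC1, SUS1 and SUS4 stay below 0 and LDH above 0 in each such fit, while every interval from all 6 libraries includes 0.

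Across the 6 libraries log2 CPM of PDC1 had a Pearson correlation of 0.77 with that of ADH1, SUS1 one of 0.59 and SUS4 one of 0.40, while LDH had -0.73, AlaAT1 -0.30 and PDC2 0.01. These are descriptions over 6 libraries that differ in genotype and depth. In the order of likeness to ADH1, PDC1 stood at place 546 of 12700 genes. The 5 genes most like ADH1 were RD20, a caleosin induced by drought and abscisic acid, REV3, PUM5, RGF7 and AT4G36032, with correlations of 0.987 to 0.988. Over these 6 points 116 genes had a correlation above 0.9. RD20 had 117 ± 14.5 CPM in amiRNA-VQ1,10 and 169 ± 16.6 CPM in wild type (SD, n = 3 each), with a log2 fold change of -0.51 that did not pass (edgeR adjusted p = 0.143).

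Genes around these enzymes in the pathway and other genes of the hypoxia response did not pass the test either, in any of 4 lists. DESeq2 and limma-voom also called 0 genes in each, and without adjustment 2 genes of the first list described here, 0 of the second and the third, and 1 of the fourth had an edgeR p under 0.05. That is 2 of 12, 0 of 16, 0 of 17 and 1 of 12 tested genes, beside 6.02% of all tested genes. In the list of other sucrose cleavage and entry of hexoses, 0 of 12 tested genes passed, with a median log2 fold change of -0.04 and 6 genes below 0. The lowest p were those of SUS3, at -0.56 ± 0.21 (SE), and of CINV2, a cytosolic invertase, at -0.61 ± 0.27 (SE), with edgeR adjusted p of 0.582 and 0.781. SUS3 had 24.9 ± 4.57 CPM in amiRNA-VQ1,10 and 37.2 ± 6.31 CPM in wild type (SD, n = 3 each), with separate ranges. UGP2, which links UDP-glucose to glucose 1-phosphate, stood at -0.30 and ATBFRUCT1, a cell wall invertase, at 0.26.

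Of the cytosolic enzymes of glycolysis 0 of 16 tested genes passed, with 8 below 0 and log2 fold changes of -0.17 to 0.43. ENO2, the enolase, had 221 ± 16.1 CPM in amiRNA-VQ1,10 and 253 ± 23.1 CPM in wild type (SD, n = 3 each; log2 fold change -0.17 ± 0.10, SE). PFK7, a phosphofructokinase, stood at 0.43 ± 0.25 (SE), PGK, the phosphoglycerate kinase, at 0.12 and the aldolase FBA8 at -0.09. Among other enzymes that use pyruvate, acetaldehyde or alanine 0 of 17 tested genes passed, with a median of -0.03. GDH2, a glutamate dehydrogenase, had the lowest p, at 0.54 ± 0.29 (SE). MAB1, a subunit of mitochondrial pyruvate dehydrogenase, stood at -0.18, GAD1, a glutamate decarboxylase, at -0.18 and AGT1, a peroxisomal aminotransferase of photorespiration, at 0.07.

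The 12 tested hypoxia genes outside the 10 enzymes had a median log2 fold change of 0.06, with 5 below 0 and 0 past the threshold. The median was -0.05 without wild type replicate 2. AT4G27450, annotated as an aluminum induced protein, had 70.9 ± 1.69 CPM in amiRNA-VQ1,10 and 52.4 ± 5.18 CPM in wild type (SD, n = 3 each), at 0.45 ± 0.14 on the log2 scale (SE, edgeR adjusted p = 0.43). PCO2, an oxygen-dependent cysteine oxidase that marks ERF factors for degradation, stood at -0.77 ± 0.40 (SE), FTM1, a desaturase, at -0.49 and HB1, a haemoglobin, at -0.16. Genes with lower and with higher values thus stood side by side in this list. Among the 7 tested enzymes 5 were below 0, and the 2 above were LDH at 0.43 and AlaAT1 at 0.01.

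**Figure D4:**
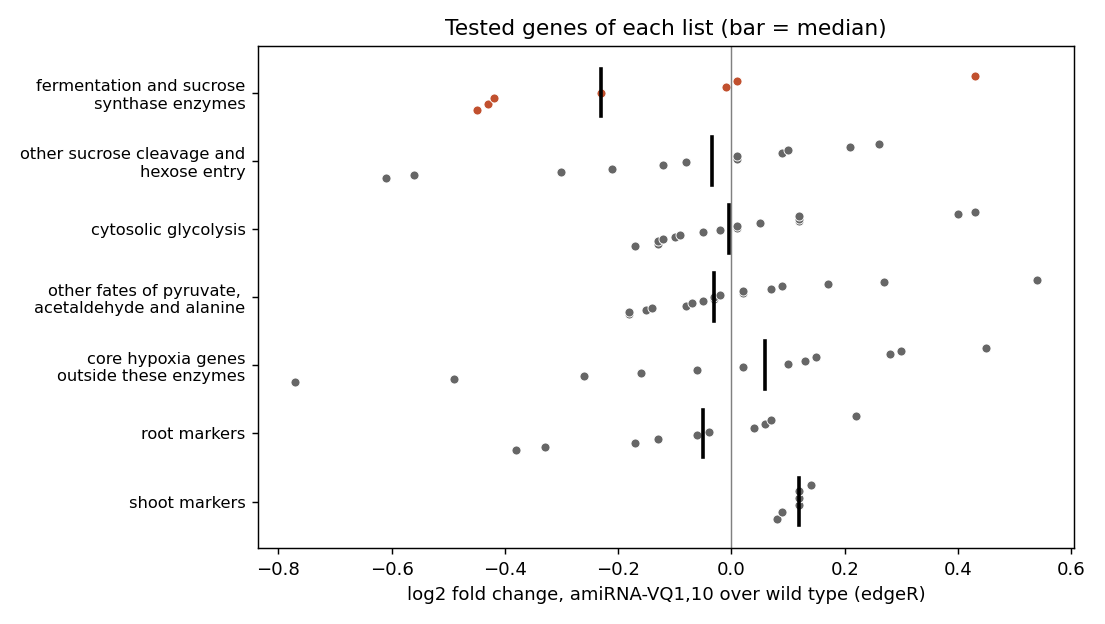
Log2 fold change (amiRNA-VQ1,10 over wild type, edgeR) of each tested gene, by list, with the median of the list as a black bar; the fermentation and sucrose synthase enzymes are in red. The medians are -0.23 for these enzymes, -0.04, 0.00, -0.03 and 0.06 for the 4 lists of pathway and hypoxia genes, and -0.05 and 0.12 for root and shoot markers.

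ADH1 is known to be higher in roots than in leaves of aerated plants, so markers of both organs were examined. The 10 tested root markers had a median log2 fold change of -0.05, with 6 below 0, and their summed level (13 listed genes) was 1320 to 1850 CPM in amiRNA-VQ1,10 and 1360 to 1520 CPM in wild type. The median was -0.25 without amiRNA-VQ1,10 replicate 2. PYK10, a beta-glucosidase of ER bodies, made up most of the sum, with 989 to 1370 CPM in amiRNA-VQ1,10 and 933 to 1050 CPM in wild type (log2 fold change 0.22 ± 0.09, SE, edgeR adjusted p = 0.684). PHT1;1, a phosphate transporter, had 76.7 to 85.8 CPM in amiRNA-VQ1,10 and 96.3 to 121 CPM in wild type, with separate ranges (-0.38 ± 0.13, SE, edgeR adjusted p = 0.524). SCR, a transcription factor of the root endodermis, also had separate ranges, with 25.9 to 27.2 CPM in amiRNA-VQ1,10 and 27.6 to 30.8 CPM in wild type (-0.13 ± 0.19, SE). Of the 10 tested root markers 2 had separate ranges, PHT1;1 and SCR, both lower in amiRNA-VQ1,10, beside 10.6% of all tested genes. Without adjustment PYK10 and PHT1;1, 2 of the 10, had an edgeR p under 0.05, in opposite directions, beside 6.02% of all tested genes. The root marker sum was highest in amiRNA-VQ1,10 replicate 2, the library in which SUS4 was lowest, with 4 counts. ADH1 had 20.5 CPM in that library, against 17.2 and 20.4 CPM in amiRNA-VQ1,10 replicates 1 and 3. The 6 shoot markers had log2 fold changes of 0.08 to 0.14, all above 0 and none past the threshold, and summed to 19900 to 21300 CPM in amiRNA-VQ1,10 and 19000 to 19300 CPM in wild type. Their median was 0.12, and 0.06 without amiRNA-VQ1,10 replicate 1. Of these 6, RBCS1A and RCA had separate ranges, both higher in amiRNA-VQ1,10, and RBCS1A alone had an edgeR p under 0.05 without adjustment. Of 4 flower markers PI was at 7.24 to 12.7 CPM in the 6 libraries and the others at 0 to 6 counts. The part of organ shares in the values of ADH1 was not tested.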

How the data were processed

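Total RNA of whole seedlings was measured by 3′ RNA-seq in 6 libraries, 3 per genotype. The authors deposited raw counts per gene, with no normalization. The submitters' processing notes name TAIR10 as build and, without roles or order, STAR, DESeq2 and HISAT2 2.0.4. Per the labels, RNA integrity was above 8 and a molecular identifier of 6 bp was linked to the primer. Whether it was used in counting is not given in the sources used here. The binomial intervals on pooled counts take every count as a separate molecule and cover counting error only. Entries that name no gene (reads outside genes, 3.79% to 4.07%) stayed out of totals and tests.

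Counts were compared with edgeR 4.0.16 in R 4.3.3 (filterByExpr with minimum count 10 and minimum total 15, TMM scaling, quasi-likelihood test, Benjamini-Hochberg adjustment). The filter left 12701 of 22738 genes with counts. The test was checked on simulated data. The SE was taken from the F statistic (the fold change on the log2 scale divided by its root). The 95% intervals use the t distribution with the degrees of freedom of the fit. The p-values set the genotype difference against the spread between these libraries and do not cover spread between independent lines. CPM is relative to all gene counts of a library. Correlations use log2 CPM with a prior count of 2. Libraries of the same genotype varied beyond counting noise (chi-square per degree of freedom 1.24 to 1.58). Alternatives used DESeq2 1.42.0 and limma 3.58.1, other scalings and filters, the replicate number as a block, thinning and leaving out each library.

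The 10 genes and the gene lists were chosen with earlier results of these data known. Beside the 10, each list of pathway or hypoxia genes gives its 4 genes of lowest p. Named too are the 5 genes, at 5 CPM or more, most correlated with ADH1. Names, overlaps and sequences came from the RefSeq annotation and genome of TAIR10.1, used together; the count files hold no coordinates, and the identity of TAIR10 and TAIR10.1 was not tested. Identities are from global alignments of the longest annotated coding sequences, as a percentage of aligned bases with gaps left out.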

Additional observations from a re-analysis of the deposited data

How the results depend on the processing

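None of the 7 tested enzymes was called in any alternative run, with adjusted p of 0.578 or above. ADH1, PDC1, SUS1 and SUS4 kept a log2 fold change below 0 and LDH one above 0 in each of the 14 they could be fitted in (the strict filter kept AlaAT1 alone of the 7). PDC2 lay between -0.19 and 0.15 with a library left out, and AlaAT1 between -0.08 and 0.08, on both sides of 0; AlaAT1 also stood at -0.01 with library totals only and at -0.00 with the strict filter (50 counts in 3 libraries). Thinned to the lowest total, SUS4 stood at -1.04, from few counts (adjusted p = 0.638). The count of called genes over the whole table was 13 (3 higher, 10 lower). It was 92 with no filter (44 and 48), 6 with the strict filter (4 lower), 6 by DESeq2 (4 lower), 8 by limma-voom (6 lower) and 8 thinned (6 lower). With the replicate number as a block it was 16, of which 6 were higher; same-numbered libraries did not deviate together (correlations of -0.007, -0.025 and -0.032), so the numbers are not taken as pairs. With 1 library left out it ran from 10 to 37, the higher ones from 3 to 10 and the lower ones from 4 to 31; it was 37 without wild type replicate 2 and 22 without amiRNA-VQ1,10 replicate 3. With 1 library left out, the medians of the lists ran from -0.13 to 0.01 for sucrose cleavage and reached 0.02 for other fates of pyruvate (without amiRNA-VQ1,10 replicate 1); that of sucrose cleavage was 0.04 with the strict filter. The causes were not tested. At 1.5 to 2.67 counts per library, PDC3, PDC4 and AlaAT2 are limited by depth.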
